A study of Mus musculus with 12 samples.

Results

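The genes described are 5 mouse lipoxygenases on chromosome 11, Aloxe3, Alox12b, Alox8, Alox12 and Alox15, out of 35697 gene identifiers listed for the 2018 libraries and 55637 for the 2022 libraries. They were chosen by symbol as the 12- and 15-lipoxygenase family with the cluster around Alox12b, after the values of both comparisons, including the lower Alox12b after traumatic brain injury (TBI), were already known. Their differences between groups are therefore given as descriptions, without p-values, and where the number of members past a threshold is given beside the share of all genes, nothing is read from it. Counts allowed a fit for 4 of the 5 in each comparison, and Alox15 had too few counts in both.

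Lipoxygenases insert oxygen into polyunsaturated fatty acids and form lipid hydroperoxides. In the outer layers of skin, 12R-lipoxygenase (Alox12b) oxidises linoleate held in ceramides and epidermal lipoxygenase 3 (Aloxe3) converts the hydroperoxide further, steps that the water barrier of the epidermis needs. Alox8 encodes the mouse 8S-lipoxygenase, Alox12 the platelet-type 12-lipoxygenase, and Alox15 the leukocyte-type 12/15-lipoxygenase of eosinophils and some macrophages, which can oxidise fatty acids still bound in membranes. Alox5 encodes 5-lipoxygenase, the enzyme that starts leukotriene synthesis and that zileuton inhibits.

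RNA was sequenced from brain tissue of adult male C57BL/6J mice in 4 groups of 3 libraries. In the 2018 batch, sham mice, which had the surgery without an impact, were compared with TBI mice 7 days after a controlled cortical impact, a blow to the exposed cortex. In the 2022 batch, TBI mice were compared with TBI mice given zileuton at 10 mg/kg per day by intraperitoneal injection, so every mouse of this batch was injured. The labels name the 2022 controls only as TBI, and they are called vehicle here because the study uses that name for the controls of zileuton, which was dissolved in corn oil. For the zileuton group, days 7, 8 and 9 stand in the source names, whereas the library names say 7 days throughout. The 2022 columns could not be tied to single labels, so these replicates are lettered A, B and C. The tissue was bulk pericontusional brain, in which fewer cells of a type and less RNA per cell cannot be told apart. P-values measure the spread between these libraries.

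Library totals were 42929862 to 48684674 counts in 2018 and 27845562 to 35453257 in 2022. Neuron markers summed to 14900 to 15200 CPM (counts scaled to a common library total with edgeR's TMM factors) in sham and 9460 to 12600 in TBI, and microglia and macrophage markers to 522 to 621 and 3440 to 5480. Libraries of the same group stood apart in 10 choroid plexus markers, led by Ttr. They summed to 1110 CPM in sham replicate 1 but to 24.1 and 61 in sham replicates 2 and 3, against 1200 to 1390 in TBI. In 2022 they summed to 13, 489 and 1090 CPM in vehicle A, B and C and to 1510, 1310 and 16.4 in zileuton A, B and C. Where named below, the choroid plexus selection keeps the libraries over 300 CPM alone, which leaves sham replicate 1 against the 3 TBI libraries.

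Positions are on GRCm38 from GENCODE M21, whereas the submitters' processing notes name GRCm39. Aloxe3 (chromosome 11, 69125896 to 69149115, plus strand) and Alox12b (69156989 to 69169792, plus strand) lay 7873 bp apart in the same orientation, and Alox8 (69183932 to 69197843, minus strand) faced them 14139 bp beyond the end of Alox12b. Alox12 (70241457 to 70255353) and Alox15 (70344152 to 70352031), both on the minus strand, followed, with 1043613 bp between Alox8 and Alox12. No annotated gene overlapped any of the 5. The sequences upstream of the annotated starts are shown for the members with an entry in the RefSeq promoter table (GRCm38.p6), because neighbouring members are compared below. Capitals mark the GC box, GGGCGG on either strand.
Alox12b, chr11:69156822-69156988, plus strand: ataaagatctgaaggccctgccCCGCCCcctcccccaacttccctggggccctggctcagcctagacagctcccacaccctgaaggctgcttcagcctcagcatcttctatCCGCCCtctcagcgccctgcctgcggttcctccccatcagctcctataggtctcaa
Alox8, chr11:69197844-69198093, minus strand: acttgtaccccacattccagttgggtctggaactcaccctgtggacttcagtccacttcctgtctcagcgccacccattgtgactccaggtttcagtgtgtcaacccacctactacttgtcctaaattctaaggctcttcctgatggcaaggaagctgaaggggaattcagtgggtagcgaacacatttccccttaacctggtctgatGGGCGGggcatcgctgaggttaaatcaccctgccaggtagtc
Alox12, chr11:70255371-70255620, minus strand: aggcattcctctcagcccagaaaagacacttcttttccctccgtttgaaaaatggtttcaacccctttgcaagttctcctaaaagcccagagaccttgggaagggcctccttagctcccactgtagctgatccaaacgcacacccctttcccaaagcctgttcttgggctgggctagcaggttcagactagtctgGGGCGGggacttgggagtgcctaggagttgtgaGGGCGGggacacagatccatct
Within the 300-base promoter windows, Alox12b held 3 GC boxes, Alox8 1 and Alox12 3, and 35.66% of 32851 promoters held at least 1. None of the 3 windows held the E-box CACGTG, the CRE, the AP-1 motif TGANTCA or the STAT motif on either strand, which 7.15%, 1.79%, 7.81% and 8.3% of all promoters held. GC content was 66% for Alox12b, 52.7% for Alox8 and 55.3% for Alox12, with a median of 52.7% over all promoters.

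Alox12b, the 12R-lipoxygenase, was lower after TBI. Its counts were 199, 301 and 315 in the sham libraries and 126, 115 and 119 in the TBI libraries, or 4.42, 6.51 and 6.63 CPM against 2.56, 2.36 and 2.76. Every TBI library lay below every sham library. The mean went from 5.85 ± 1.24 to 2.56 ± 0.201 CPM (SD, n = 3), 43.8% of the sham level, with a log2 fold change of -1.19 (SE 0.21). Of 19536 genes fitted, 0.896% had a lower log2 fold change. The lowest sham library, replicate 1, was also the sham library with choroid plexus markers at the TBI level. With sham replicate 1 as the only sham library against the 3 TBI libraries, the log2 fold change was -0.82, and without sham replicate 1 it was -1.37.

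**Figure D1:**
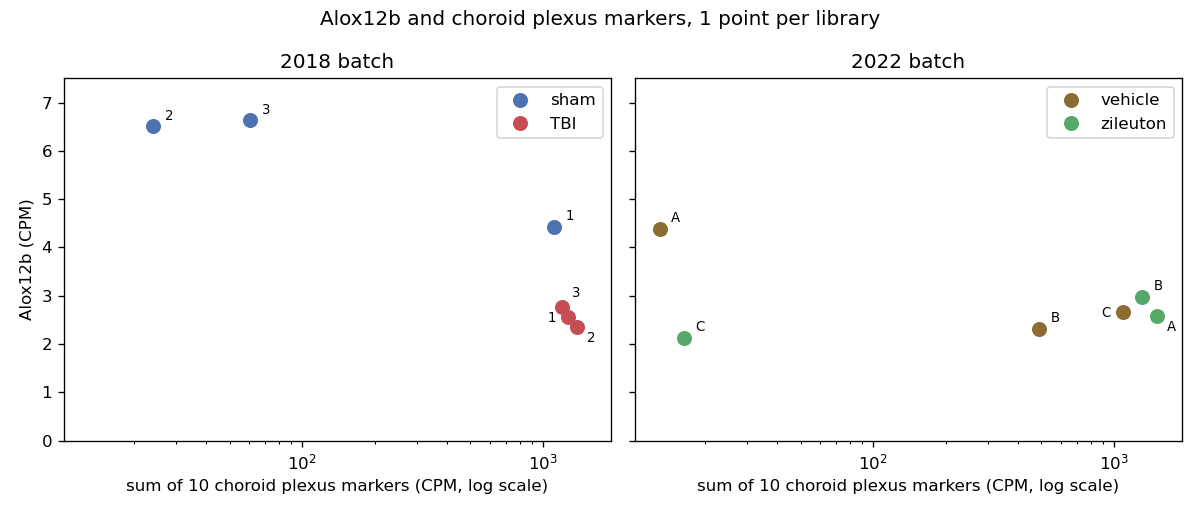
Alox12b (CPM, vertical axis) against the sum of 10 choroid plexus markers (CPM, log scale) in each library, with the 2018 batch on the left and the 2022 batch on the right. Sham replicate 1, at 4.42 CPM of Alox12b and 1110 CPM of choroid plexus markers, lies between the other sham libraries and the TBI libraries.

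Aloxe3, the partner enzyme downstream of Alox12b, was also lower in every TBI library, by less. Counts were 218, 262 and 225 in sham and 149, 125 and 183 in TBI, or 4.84, 5.66 and 4.74 against 3.03, 2.57 and 4.25 CPM. The groups did not overlap, although TBI replicate 3 came close to the lowest sham library. The log2 fold change was -0.63 (SE 0.222), and 64.6% of the sham level remained. With the libraries over 300 CPM of choroid plexus markers alone it was -0.59. The ratio of Alox12b counts to Aloxe3 counts was 0.913, 1.15 and 1.4 in sham and 0.846, 0.92 and 0.65 in TBI, and the ranges overlapped by the lowest sham library and the highest TBI library.

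Alox8, the 8S-lipoxygenase at the other end of the cluster, overlapped between the groups. Its counts were 183, 133 and 171 in sham and 168, 119 and 98 in TBI, with a log2 fold change of -0.37 (SE 0.237), and -0.61 in the choroid plexus selection. Alox12, the platelet-type enzyme, had 29, 17 and 26 counts in sham and 29, 27 and 36 in TBI, with a log2 fold change of 0.34 (SE 0.383) and overlapping groups. Without sham replicates 2 and 3 its log2 fold change was 0. Alox15, the leukocyte-type enzyme, had no count in any sham library and 6, 2 and 0 in TBI. A count of 0 allows up to 3 counts, or 0.0631 to 0.0666 CPM in sham. Even numbers made up 62.3% to 64.4% of the low counts (1 to 20) of 2018, so a limit of 6 counts is also given, 0.126 to 0.133 CPM, which no TBI library exceeded. A difference in Alox15 was not detectable at this depth.

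**Figure D2:**
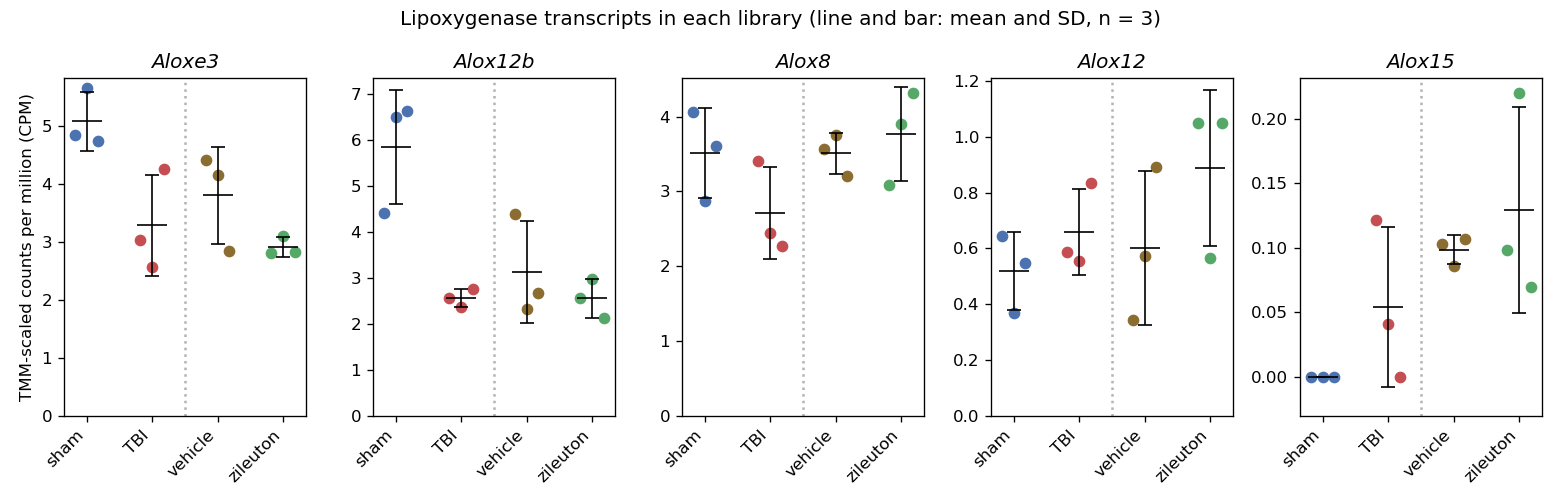
TMM-scaled CPM of the 5 lipoxygenases in each library, with 1 point per library and the mean and SD of each group of 3; the dotted line parts the 2018 batch from the 2022 batch, which were deposited as separate tables. Alox12b and Aloxe3 are the genes whose TBI libraries all lie below the sham libraries.

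An adjusted p-value under 0.05 in edgeR's quasi-likelihood test with Benjamini-Hochberg adjustment was reached by 28% of the genes tested between TBI and sham, 11.2% lower and 16.8% higher. Of the 4 members tested 1 reached it, Alox12b, and 2 had groups that did not overlap, both lower, against 44.4% of all genes in either direction and 19.8% lower. With sham replicate 1 as the only sham library, no member reached the threshold, and 7.22% of all genes did. DESeq2, which made false calls most often on simulated data, called Aloxe3 in addition to Alox12b, and 31.9% of all genes. Without TBI replicate 3 edgeR also called both members, and 23.8% of all genes. Alox5 had 53, 41 and 43 counts in sham and 131, 156 and 144 in TBI, with no overlap and a log2 fold change of 1.63 (SE 0.24, adjusted p = 0.00138, edgeR). Alox12e, the epidermal-type 12-lipoxygenase between Alox12 and Alox15, had 0 to 4 counts in every 2018 library.

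Whether the genes around the cluster moved with it was examined in the annotated genes within 100 kb of the span from Alox12b to Alox8. A second window was set in the same way around the span from Alox12 to Alox15. The first span leaves out Aloxe3, so genes within 100 kb of Aloxe3 on its far side were not all covered. Of the 8 genes of the window that could be tested beside Aloxe3, Alox12b and Alox8, 2 were lower after TBI and 6 did not pass the threshold. Among all genes tested, 11.2% were lower and 16.8% higher. Vamp2, which encodes a synaptic vesicle protein, fell from 890 ± 55.2 to 703 ± 42.6 CPM (SD, n = 3), with a log2 fold change of -0.34 (SE 0.0834, adjusted p = 0.0159, edgeR). Per1, a repressor of the circadian clock, fell from 152 ± 40.2 to 91.1 ± 19.5 CPM, with a log2 fold change of -0.74 (SE 0.211, adjusted p = 0.0295, edgeR). Per1 counts were 4828, 8520 and 7867 in sham and 3402, 4754 and 4586 in TBI, so sham replicate 1 was again the lowest sham library. With that library as the only sham library, neither passed the threshold (edgeR): the log2 fold change of Per1 went to -0.27 (adjusted p = 0.528), while that of Vamp2 was -0.31 (adjusted p = 0.216). Gucy2e, 9330160F10Rik, 9130213A22Rik, Borcs6, Tmem107 and Hes7 had log2 fold changes of -0.46, -0.43, -0.3, -0.16, 0.35 and 0.6, none past the threshold. Beside Alox12 and Alox15, 9 neighbours could be tested and 2 were higher. Clec10a, a macrophage lectin, rose from 0.629 ± 0.37 to 1.83 ± 0.415 CPM (log2 fold change 1.54, SE 0.429, adjusted p = 0.0272, edgeR), and Arrb2, which encodes beta-arrestin 2, rose from 36.1 to 58.3 CPM (log2 fold change 0.69, SE 0.116, adjusted p = 0.00273, edgeR). Clec10a did not pass the threshold without sham replicate 1, without sham replicate 3 or without TBI replicate 3, where it was at 1.43, 1.2 and 1.35 on the log2 scale (edgeR's adjusted p = 0.0951, 0.0739 and 0.0778), nor in the choroid plexus selection, at 1.74 (adjusted p = 0.0872, edgeR). In that selection Arrb2 was at 0.85 (adjusted p = 0.0279, edgeR).

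**Figure D3:**
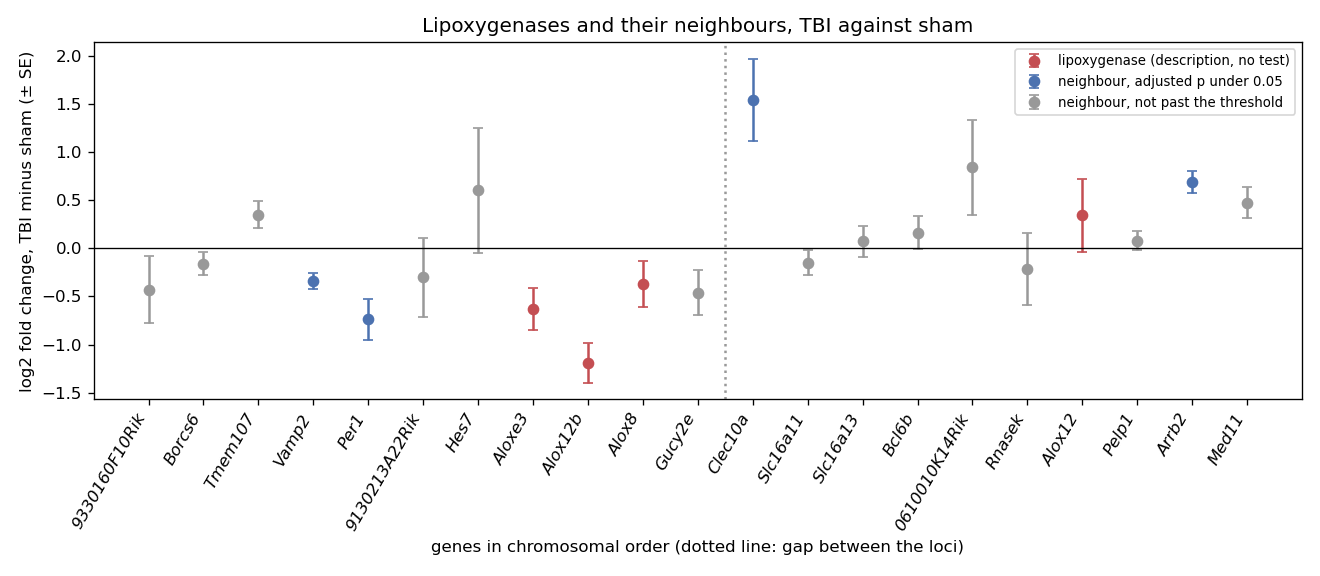
Log2 fold change from sham to TBI (± SE) of the lipoxygenases and of their tested neighbours, in chromosomal order. Neighbours lie within 100 kb of the span from Alox12b to Alox8 or from Alox12 to Alox15. The dotted line marks the gap between the loci. Alox12b lies lowest at -1.19, and Clec10a highest at 1.54.

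The barrier route of skin, in which Alox12b and Aloxe3 act, did not move in a single direction. Of its 23 listed genes 16 could be tested, 6 rose, 3 fell with Alox12b counted among them, and the median of their log2 fold changes was 0.06, where all genes tested had 0.02. Among its most highly expressed genes, Ugcg, the glucosylceramide synthase, fell from 99.9 to 71.1 CPM (log2 fold change -0.49, adjusted p = 0.0016, edgeR) and Elovl4, an elongase of very long fatty acids, from 66.8 to 51.1 CPM (-0.39, adjusted p = 0.00579, edgeR), while Slc27a4, a fatty acid transporter, did not pass the threshold (-0.18, adjusted p = 0.107, edgeR). Singled out after its values were seen, Tgm1, the transglutaminase that crosslinks the cornified envelope, had 8, 14 and 6 counts in sham and 204, 836 and 686 in TBI, with a log2 fold change of 5.92 (SE 0.624, adjusted p = 0.000215, edgeR). St14, which encodes the protease matriptase and was singled out in the same way, rose from 0.371 to 2.59 CPM (log2 fold change 2.8, adjusted p = 0.00101, edgeR). Tgm5 and Cyp4f39 were at 0 in every 2018 library. With sham replicate 1 as the only sham library, 4 genes of the route passed the threshold.

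**Figure D4:**
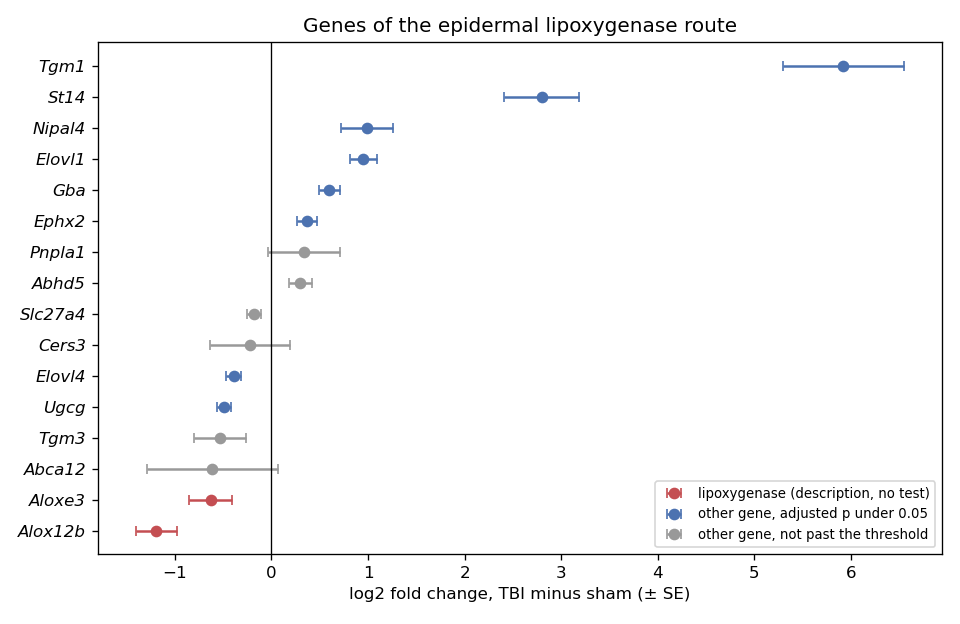
Log2 fold change from sham to TBI (± SE) of the 16 tested genes of the epidermal lipoxygenase route, sorted by value. Alox12b (-1.19) and Tgm1 (5.92) lie at opposite ends.

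Lists of receptors for lipoxygenase products and of genes that handle lipid hydroperoxides or iron held more genes that rose than fell, where 16.8% of all genes rose and 11.2% fell. Of 11 tested receptors 5 rose and none fell, among them Cmklr1, a resolvin E1 and chemerin receptor (log2 fold change 1.94, adjusted p = 4.22e-05, edgeR), and Ppard, a nuclear fatty acid receptor (0.41, adjusted p = 0.0187, edgeR). Gpr37, the most expressed receptor of the list, did not pass the threshold (0.55, adjusted p = 0.0982, edgeR). Of the 28 genes of the other list, 17 rose and 1 fell. Prdx6, a peroxidase that reduces phospholipid hydroperoxides, rose from 188 to 518 CPM (log2 fold change 1.46, adjusted p = 4.86e-05, edgeR) and Fth1, the ferritin heavy chain, from 1210 to 1680 CPM (0.47, adjusted p = 0.00197, edgeR), whereas Pebp1, a lipoxygenase-binding protein, had a log2 fold change of 0.18 (adjusted p = 0.0928, edgeR). With sham replicate 1 as the only sham library, 2 receptors and 8 of these genes passed the threshold.

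Cells known for these enzymes were followed by their markers. Keratinocyte markers summed to 35.9 to 41.3 CPM in sham and 44.2 to 46.3 in TBI, with 2 of 9 tested markers higher. These were Trp63 (log2 fold change 1.38, adjusted p = 0.0258, edgeR) and Sfn (0.89, adjusted p = 0.0465, edgeR). Among all genes tested, 16.8% were higher and 11.2% lower. Of the 7 tested markers that did not pass the threshold, Dsc3 had the lowest log2 fold change, -1.01 (adjusted p = 0.109, edgeR). Perp, the most expressed of the list, did not pass the threshold (0.35, adjusted p = 0.065, edgeR). The basal keratins Krt5 and Krt14 and the envelope genes Ivl and Flg had at most 6 counts in any 2018 library, whereas Krt10 had means of 9.72 and 11.4 CPM, Lor 8.56 and 9.19, and Krt1 3.15 and 2.99 in sham and TBI. Of 7 platelet markers tested 1 rose and 1 fell, and their sums were 7.49 to 9.1 and 9.5 to 29.7 CPM, with Pf4 rising from 1.85 to 13.9 CPM and Gp9 falling from 0.645 to 0.175. Of 5 tested markers of eosinophils and peritoneal macrophages 4 rose, and the sums of the list were 4.33 to 5.32 and 40.4 to 112 CPM, most of it Cd5l, a macrophage gene, at a mean of 61.7 CPM in TBI. The eosinophil marker Siglecf rose from 0.442 to 2.76 CPM (log2 fold change 2.63, adjusted p = 0.00701, edgeR). Epx, also an eosinophil marker, rose from 0.231 to 0.765 CPM (1.71, adjusted p = 0.047, edgeR). Icam2 of the same list rose from 1.95 to 3.42 CPM (0.81, adjusted p = 0.0181, edgeR). Gata6, a peritoneal macrophage marker, did not pass the threshold, at 1.59 CPM in sham and 1.77 in TBI (0.16, adjusted p = 0.668, edgeR). The eosinophil genes Prg2, Il5ra, Ccr3, Ear1, Ear2 and Ear6 had too few counts to be tested, as had Timd4, another peritoneal macrophage marker. Of 20 neuron markers 9 fell and none rose, with a median log2 fold change of -0.38, beside -1.19 for Alox12b and -0.63 for Aloxe3. Of 15 circadian clock genes, the group of the neighbour Per1, 11 fell and none rose, with a median of -0.54. In the choroid plexus selection 2 neuron markers, 4 clock genes, 2 eosinophil and macrophage markers and no keratinocyte or platelet marker passed the threshold. The part of neurons, clock genes and choroid plexus tissue in the lower Alox12b was not tested.

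Whether zileuton changed the lipoxygenases was asked in the 2022 batch. No gene passed the adjusted threshold, so 0% were called, while 6.83% of 17363 genes had an unadjusted p under 0.05 and DESeq2 called 28. Alox12b had 128, 81 and 75 counts in vehicle A, B and C and 78, 95 and 61 with zileuton, and the groups overlapped. Its log2 fold change was -0.28 (SE 0.281). It rested on vehicle A, the vehicle library with the fewest choroid plexus markers, and was 0.04 without that library. Zileuton C, which also had few choroid plexus markers (16.4 CPM), had the lowest Alox12b of the batch, at 2.13 CPM. Alox8 had 104, 131 and 90 counts against 94, 124 and 124, with a log2 fold change of 0.1 (SE 0.188). Alox12 had 10, 20 and 25 counts against 32, 18 and 30, with a log2 fold change of 0.56 (SE 0.432) that went from 0.29 without vehicle A to 0.93 without vehicle C. Alox15 had 3, 3 and 3 counts against 3, 7 and 2. Alox5, the target of the drug, had 67, 66 and 87 counts against 141, 76 and 80, with a log2 fold change of 0.43 (SE 0.307, adjusted p = 0.756, edgeR). The groups of all 4 fitted members overlapped, and 13.6% of all genes had groups that did not. These values do not show that the groups were alike. Of 17 tested neighbours none passed the threshold, with adjusted p-values of 0.713 to 0.995 (edgeR), and no gene of any list did.

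For Aloxe3 the direction with zileuton depended on the unit. Counts were 129, 145 and 80 in vehicle and 85, 99 and 81 with zileuton, a log2 fold change of -0.39 (SE 0.211). The deposited TPM (transcript abundances, which divide counts by a transcript length estimated for each library) were 4.3, 4.34 and 4.21 in vehicle and 5.44, 3.65 and 4.45 with zileuton, with means of 4.28 and 4.51, and on log2(TPM + 1) the difference was 0.05. The length implied by count and TPM, set by 1116 genes with a single transcript, was 1.95, 1.79 and 1.2 kb for Aloxe3 in vehicle and 1, 1.63 and 1.2 kb with zileuton, a 1.95-fold range. For Alox12b, annotated with 1 transcript, it was 2.39 to 2.41 kb in every library. Aloxe3 has 6 annotated transcripts, of which 1 is coding and 4 retain an intron. The part of transcript assignment in the TPM of Aloxe3 was not tested.

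**Figure D5:**
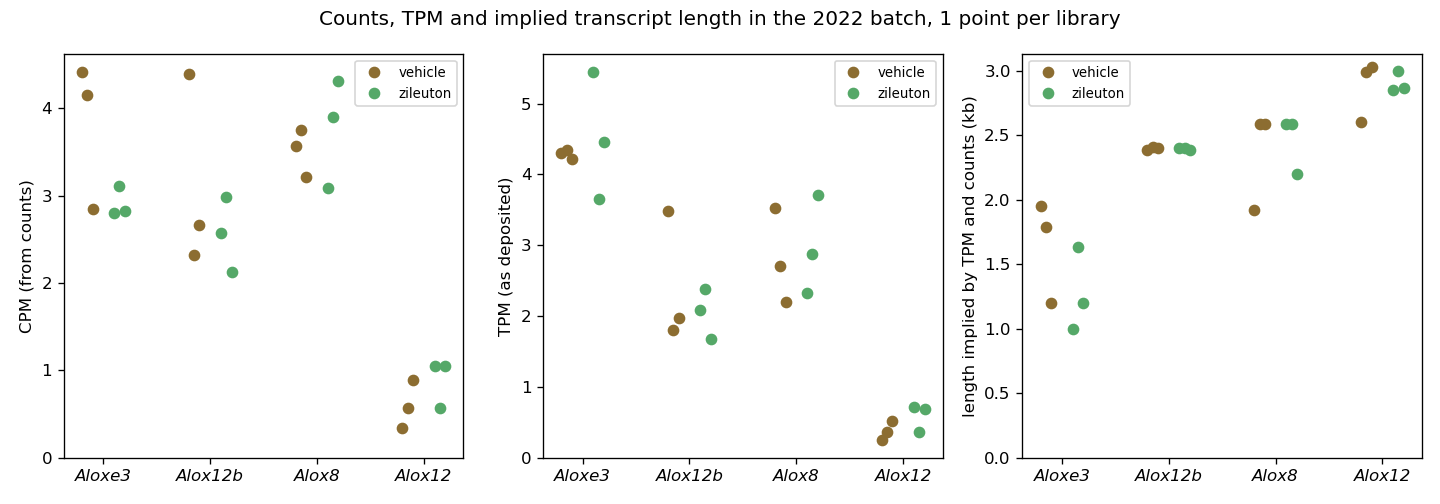
CPM from counts, deposited TPM and the transcript length that both imply (kb) for 4 lipoxygenases in the 2022 batch, with 1 point per library. The implied length of Aloxe3 spans 1 to 1.95 kb, whereas that of Alox12b stays at 2.39 to 2.41 kb.

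By deposited FPKM, Alox12b was the most abundant of the 5 in 2018. Its FPKM (counts scaled by gene length and library total) was 1.77 to 2.69 in sham and 1.01 to 1.14 in TBI, above Alox8 (0.795 to 1.11 and 0.641 to 0.97) in every library of the same group. Alox8 overlapped with Aloxe3 (0.729 to 0.871 and 0.416 to 0.666), and Alox12 (0.0885 to 0.154 and 0.141 to 0.205) and Alox15 (0 to 0.0502) followed without overlap. The FPKM of Aloxe3 rest on a length of 6397 bp that includes its retained introns. With the 3019 bp of its coding transcript the median sham FPKM was 1.56, second to Alox12b, instead of 0.738. In TBI Aloxe3 then overlapped with Alox12b, at 0.881 to 1.41 against 1.01 to 1.14. In 2022 Aloxe3 led by median TPM (3.65 to 5.44), its lowest zileuton library overlapped with Alox8 (2.2 to 3.71), and Alox8 overlapped with Alox12b (1.68 to 3.48), so the order differed between the tables, which were normalised separately. On coding transcript length the median of Aloxe3 with zileuton went from 4.45 to 1.81, behind Alox8 (2.31) and Alox12b (2.06), and in vehicle it was 2.57, above both, with overlapping ranges in both groups. Alox12 (0.25 to 0.72) and Alox15 (0.06 to 0.18) were lowest in both.

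Across all 12 libraries, each gene was compared by the root mean square difference of its log2 CPM, centred within each batch. Alox12b was closest among the members to Aloxe3 (0.315), and farthest from Alox12 (0.828). The median gene differed from Aloxe3 by 0.367, little more than Alox12b did, from Alox8 by 0.285 and from Alox12 by 0.482. Over 14384 genes the closest to Alox12b were Adrb1 (0.215), Cplx3, Lin7b, Nptxr and Neb, where the median gene differed by 0.511. Closest to Aloxe3 were Syt17 (0.0961), Ypel1, Rasal1, Rtn4rl2 and C2cd4c, and among the closest to Alox8 were Slc25a53 (0.0999), Sema3e, Rasgrp1 and Plpp6. Closest to Alox12 were AC132253.9 (0.242), Acad10, Bace2, Nemp2 and Adssl1.

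PCR primers that the study lists for Alox12b are shown because they define the part of the transcript that such an assay reads, exons 1 and 2 of 15.
Forward, chr11:69157294-69157314, plus strand: ggggacgctggattcaatttc
Reverse, chr11:69158278-69158298, minus strand: ggcactgtaccgtgtagtcat
They bound a 125 bp product of the only annotated transcript that holds either primer, so such an assay would address the same transcript of Alox12b as the counts. The genes that the paper's text names for RT-PCR do not include Alox12b.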

How the data were processed

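The members and gene lists were chosen with earlier results of these data known. For the 2018 batch (3 sham and 3 TBI libraries) the authors deposited raw counts per gene and FPKM, and for the 2022 batch (3 vehicle and 3 zileuton libraries) estimated counts, also called expected counts, and TPM. The deposited counts of 2022 held 13% to 15.2% values that were not whole and were rounded for the count tests, which the plan had foreseen. The submitters' processing notes name HISAT2, featureCounts, Subread, DESeq2 and GRCm39, without roles; strand use is not given in the sources used here. The lengths behind the deposited FPKM equalled the exon unions of GENCODE M21 (GRCm38) for 97.8% of 2129 genes of chromosome 11, and positions are on that build. Symbols were found for 34808 and 52081 identifiers.

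Each comparison was fitted on its own 6 libraries in R 4.3.3 with edgeR 4.0.16 (TMM, filterByExpr, glmQLFit and glmQLFTest, Benjamini-Hochberg adjustment over all genes tested, threshold 0.05). Standard errors were taken as the absolute log2 fold change over the root of the F statistic. The fits were repeated with library totals or DESeq2's size factors, DESeq2 1.42.0, other count filters, limma 3.58.1 on log2(FPKM or TPM + 1) and + 0.1 with a mean of at least 0.5 or no filter, a replicate block, removal of a length trend, and leaving out each library. Halved 2018 counts, coding transcript lengths, and the libraries with choroid plexus markers over 300 CPM alone were added after the data were seen. The fits were tested on simulated data. With gene-wise dispersions edgeR, limma and DESeq2 all made false calls above the nominal rate, DESeq2 most often, and with trended dispersions edgeR was near it. The limit set for passing this test was changed after DESeq2 had exceeded the first. Genes were named by rule: the members, tested neighbours within 100 kb, other lipoxygenase genes, up to 3 most expressed genes of a list, and the 5 closest patterns among genes with a mean of at least 1 CPM, of which 1 is not reported here. Promoters are RefSeq windows, with 3 of 5 members matched. Limits from counts cover counting error only. Plots used matplotlib 3.10.9 in Python 3.11.15.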

Additional observations from a re-analysis of the deposited data

How the results depend on the processing

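Between TBI and sham the 5479 called genes stayed within 1.5 times under 17 of 18 alternatives, 3848 to 4956 when a library was left out, but were 1542 with the libraries over 300 CPM of choroid plexus markers alone, which leaves 1 sham library, assumed to vary like the others. There Alox12b was no longer called. The log2 fold change of Alox12b was negative under all 18 alternatives (-1.37 to -0.69), as were those of Aloxe3 (-0.86 to -0.23) and Alox8 (-0.61 to -0.15), with the values nearest 0 from limma on log2(FPKM + 1), which shrinks low genes by construction. With library totals 3680 genes were higher and 1715 lower, against 3286 and 2193. Between zileuton and vehicle no gene was called in the main test, 28 with DESeq2, which made more false calls on simulated counts, 4 without a count filter, 4 and 3 with limma on log2(TPM + 1) and log2(TPM + 0.1) above a mean of 0.5. Genes with an unadjusted p under 0.05 numbered 1186, 680 with the choroid plexus selection, and 689 to 1909 when a library was left out, lowest without zileuton B (689), 777 without zileuton C and highest without zileuton A. For Alox12b with zileuton, 15 of 17 alternatives were negative and 2 positive, 0.04 without vehicle A and 0.16 with the choroid plexus selection. Aloxe3 was positive (0.05 to 0.06) only on TPM. Samples with the same replicate number did not deviate together (correlations of -0.02, -0.09 and -0.03 in 2018 and -0.28, 0.06 and -0.28 for the shared column numbers of 2022), and with the replicate block 4337 genes were called after TBI and none with zileuton, where 729 had an unadjusted p under 0.05. Per1 lost its call under 7 alternatives, Clec10a under 5 and Vamp2 under 3. Low counts limit Alox12 and Alox15.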

Other observations

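Values of the marker lists not described above are given for the same libraries, without an explanation. Between TBI and sham, 18 of 19 microglia and macrophage markers rose, all 9 tested neutrophil and monocyte markers rose, and 7 of 10 astrocyte, 7 of 11 oligodendrocyte, 7 of 10 endothelial and 6 of 10 fibroblast and meninges markers rose, with none lower in these lists. With sham replicate 1 as the only sham library, 15 microglia and macrophage, 8 neutrophil and monocyte, 4 astrocyte, 1 oligodendrocyte, 2 endothelial, 1 fibroblast and meninges and 0 red blood cell markers passed the threshold. Of 6 red blood cell markers tested 3 fell and none rose. Of 10 choroid plexus markers 1 was called higher, while 10 were without sham replicate 1 and none without sham replicate 2. Among 6 tested genes of the list of other lipoxygenase family and partner genes 4 rose (2 passed the threshold with sham replicate 1 as the only sham library), with Alox5ap, the 5-lipoxygenase activating protein, at a log2 fold change of 2.35 (adjusted p = 0.000276, edgeR), Cotl1 at 1.64 (adjusted p = 1.73e-05, edgeR), and Ltc4s, the leukotriene C4 synthase, at 2.02 (adjusted p = 0.00264, edgeR), while Lta4h was at 0.09 (adjusted p = 0.38, edgeR).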
